A study of Mus musculus with 2 samples.

Results

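The 9 genes described here encode the 4 mouse centrins (Cetn1, Cetn2, Cetn3 and Cetn4) and 5 other proteins of the centriole and the sperm neck (Spatc1, Spatc1l, Cep135, Poc1a and Poc1b). They were taken by symbol, and all 9 were found among 43346 Ensembl genes in the gene tables, with 28 of 103639 transcripts in the transcript tables. RNA of testis from male C57BL/6J mice aged 8 weeks was selected for poly(A) tails, reduced to molecules above 200 nucleotides and sequenced as stranded pairs of 76 nucleotides. There were 2 libraries, replicates 1 and 2, described as coming from littermates but given the same donor identifier in the labels, so separate animals are not established and the spread between them may be technical. No genotype, treatment or second tissue was included, so there is 1 group and no test between groups. Levels are in TPM, transcripts in every 1000000, which are corrected for transcript length and can be compared between genes.

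Centrioles are short barrels of microtubule triplets that organise the centrosome and, in the spermatid, template the axoneme of the flagellum. Centrins are small calcium-binding proteins of the calmodulin superfamily that line the centriole lumen and also act in nucleotide excision repair and mRNA export. During spermiogenesis the centriole pair docks at the nucleus and is built into the neck that couples head to tail, and in mouse the centrioles then degenerate before sperm are mature. Cetn1 is an autosomal retrocopy of the X-linked Cetn2, and X-linked genes are silenced in meiotic spermatocytes.

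The sequence that divides the main Cetn4 transcripts is shown because the leading Cetn4 transcript is the one without it. Cetn4 (ENSMUSG00000045031) lies on the minus strand of chromosome 3 at chr3:37307749-37312708 (mm10). Cetn4-203 has 5 coding exons and encodes 168 residues, and its exon 4, at chr3:37309345-37309482, is 138 bases long and holds codons 94 to 139. Cetn4-202 lacks that exon and encodes 122 residues, 46 fewer, in the same frame. The exon and the joins around it read as follows, 5′ to 3′ on the transcript strand in the GENCODE M21 transcripts, with the first 15 bases of the following exon in capitals in each join.
Cetn4-203 exon 4: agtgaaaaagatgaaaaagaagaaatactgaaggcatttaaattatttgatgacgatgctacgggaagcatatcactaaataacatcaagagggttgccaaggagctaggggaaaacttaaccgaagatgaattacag
Cetn4-202 join of exons 3 and 4: atgagcgtaaaaatgGAAATGCTTGATGAA
Cetn4-203 join of exons 3 and 4: atgagcgtaaaaatgAGTGAAAAAGATGAA
Cetn4-203 join of exons 4 and 5: gaagatgaattacagGAAATGCTTGATGAA
The join of Cetn4-202 puts the last bases of the third exon directly before the bases that open the fifth exon of Cetn4-203.

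The corresponding sequence for Poc1b is exon 10 of Poc1b-201, at chr10:99164869-99164949 on the plus strand, which has 81 bases, or 27 codons, and is absent from Poc1b-203. It is shown because transcripts with and without it were both among the main Poc1b transcripts. In the join, capitals mark the first 15 bases after the skipped exon.
Poc1b-201 exon 10: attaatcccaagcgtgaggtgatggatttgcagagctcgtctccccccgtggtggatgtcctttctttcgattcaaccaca
Poc1b-203 join: aaggagactattgaaATGACGGATTCCACC

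All 9 genes were detected, meaning that replicates 1 and 2 each reached a TPM of 1, against 62.1% of 21474 protein-coding genes. Their levels spanned a wide range, with the neck genes Spatc1 and Spatc1l at the top and Cep135 and Cetn2 at the bottom. The median over the 9 was 66.9 TPM, beside 12.9 TPM for detected protein-coding genes. In order of mean TPM they ran Spatc1, Spatc1l, Cetn1, Cetn4, Poc1a, Poc1b, Cetn3, Cep135 and Cetn2. The library values of Cetn1 and Cetn4 overlapped, as did those of Poc1a and Poc1b, while every other neighbouring pair in the order was separated in both libraries. These are levels of a whole tissue, in which fewer cells of a type and less RNA per cell cannot be told apart.

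**Figure D1:**
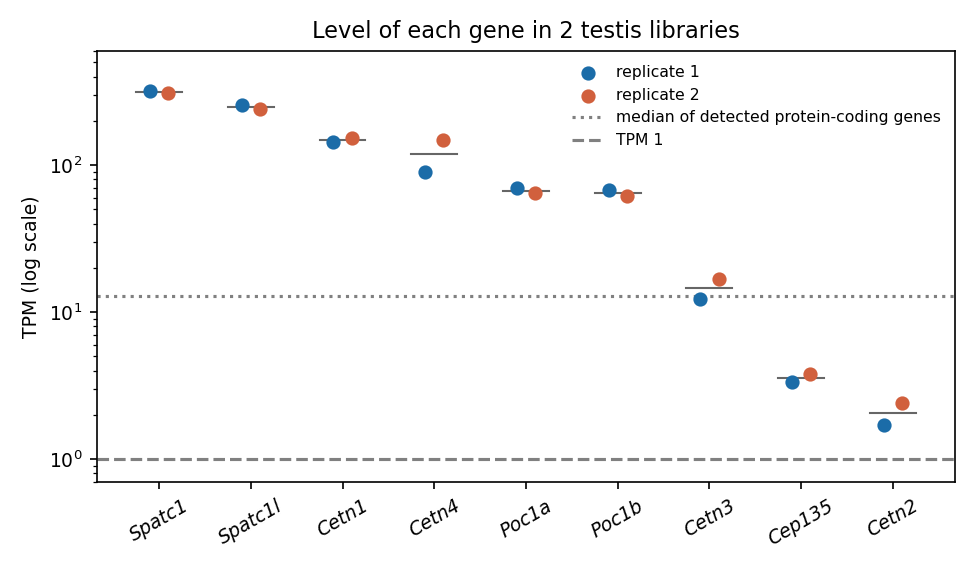
TPM of each gene on a log axis in replicate 1 (blue) and replicate 2 (orange), with a grey bar at the mean of both. Spatc1 lies highest at 320.32 and 309.15, Cetn2 lowest at 1.7 and 2.42, and Cetn4 has the widest gap between libraries among the 6 highest genes.

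Among the centrins, Cetn1 and Cetn4 made up most of the RNA and the widely expressed Cetn2 and Cetn3 little of it. Cetn1 (ENSMUSG00000050996, chr18:9615524-9619478, minus strand) is known as the male germ-line centrin and is required for male fertility in mouse. It had 143.11 TPM in replicate 1 and 152.65 in replicate 2, a mean of 147.9 ± 6.75 TPM (SD, n = 2), from 6038 and 6690 expected counts. That placed it at or above 94.7% of protein-coding genes and 91.4% of detected ones. Its 1 transcript has 2 exons, with the whole coding sequence in 1 of them.

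Cetn4 had 89.72 TPM in replicate 1 and 149.05 in replicate 2, from 2758 and 4524 counts, a mean of 119.4 ± 42.0 TPM. Its coefficient of variation was 35.1%, and replicate 2 was clearly the higher library. Cetn4 is a centrin known from ciliated tissues of mouse. Cetn1 was above Cetn4 by 0.67 on the log2(TPM + 1) scale in replicate 1 and by 0.03 in replicate 2, so the order was the same in both libraries but nearly level in replicate 2.

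Cetn3 (ENSMUSG00000021537, chr13:81783077-81797155, plus strand), the centrin most distant from the others, had 12.37 and 16.72 TPM in replicates 1 and 2, from 398 and 558 counts. Its mean of 14.54 ± 3.08 TPM lay close to the 12.9 TPM median of detected protein-coding genes. Cetn2 (ENSMUSG00000031347, chrX:72913532-72918411, minus strand), which besides its place in centrioles is a subunit of the XPC repair complex, had 1.7 and 2.42 TPM from 71 and 110 counts. At 2.06 ± 0.509 TPM it was the lowest of the 9, at or above 43.3% of protein-coding genes but 9.19% of detected ones. Among the 532 X-linked protein-coding genes with a mean of at least 1 TPM the median was 4.96 TPM, against 12.7 TPM for 13203 autosomal ones, and 25.8% of the X-linked genes were at or below Cetn2.

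Of the TPM summed over the 4 centrins, Cetn1 held 58.0% in replicate 1 and 47.6% in replicate 2, and Cetn4 held 36.3% and 46.5%. Cetn3 held 5.01% and 5.21%, and Cetn2 0.689% and 0.754%. On the log2(TPM + 1) scale Cetn1 was above its parent gene Cetn2 by 5.61 ± 0.18 (SD, n = 2), a ratio of TPM of 84.2 and 63.1 in replicates 1 and 2. Cetn4 was above Cetn2 by 5.26 ± 0.27, and Cetn3 above Cetn2 by 2.34 ± 0.05. Cetn1 was above Cetn3 by 3.27 ± 0.22. Each of these differences was many times the spread between libraries, but 2 libraries cannot give a test.

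The neck genes were the most abundant of the 9. Spatc1 (ENSMUSG00000049653, chr15:76268089-76292572, plus strand), which encodes speriolin, a centrosomal protein of spermatogenic cells that binds Cdc20, had 320.32 and 309.15 TPM in replicates 1 and 2. Its mean of 314.7 ± 7.9 TPM was at or above 97.7% of protein-coding genes. Spatc1l (ENSMUSG00000009115, chr10:76562272-76570201, plus strand), the speriolin-like protein needed to hold sperm heads to tails in mouse, had 254.85 and 240.67 TPM, a mean of 247.8 ± 10 TPM. Spatc1 was above Spatc1l by 0.34 ± 0.02 on the log2(TPM + 1) scale, and the values of both were close between libraries.

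Poc1a and Poc1b, WD-repeat proteins that stabilise the centriole wall, were nearly level. Poc1a (ENSMUSG00000023345, chr9:106281061-106350521, plus strand), whose loss leaves male mice sterile, had 69.57 and 64.19 TPM in replicates 1 and 2, a mean of 66.88 ± 3.8 TPM. Poc1b (ENSMUSG00000019952, chr10:99107036-99198074, plus strand) had 67.57 and 61.78 TPM, a mean of 64.67 ± 4.09 TPM. Their difference on the log2(TPM + 1) scale was 0.04 in replicate 1 and 0.05 in replicate 2.

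Cep135 (ENSMUSG00000036403, chr5:76588698-76646466, plus strand), a protein that links the cartwheel at the base of a new centriole to its microtubules, was the other low gene. It had 3.37 and 3.79 TPM in replicates 1 and 2, a mean of 3.58 ± 0.297 TPM, at or above 50.02% of protein-coding genes and 19.8% of detected ones. Because its transcripts are longer than those of Cetn2, this level came from 723 and 853 counts.

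Between the libraries, 0 of the 9 genes passed a 2-fold difference in scaled counts, and 3.49% of 16355 tested genes did, so the count says nothing particular about them. The log2 ratio of replicate 2 over replicate 1 was taken from expected counts scaled by the TMM method, with a 95% interval that covers counting error only. It was positive for 6 genes and negative for 3, and its interval lay above 0 for 5, below 0 for 3 and over 0 for 1. Over all tested genes the median ratio was -0.00, and the interval excluded 0 for 55.1%.

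Cetn4 was farthest from 0, at 0.64 (0.57 to 0.71), a ratio of 1.56, and 9.04% of tested genes had a ratio at least as far from 0. Cetn2 followed at 0.55 (0.11 to 1.01) and Cetn3 at 0.41 (0.22 to 0.60), the interval of Cetn2 being the widest of the 9, with 71 and 110 counts. Cep135 had 0.16 (0.02 to 0.31), Cetn1 0.07 (0.02 to 0.12), and Poc1b 0.01 (-0.04 to 0.07). Spatc1 had -0.07 (-0.10 to -0.04), Spatc1l -0.11 (-0.14 to -0.07) and Poc1a -0.12 (-0.18 to -0.05). All 4 centrins thus had more scaled counts in replicate 2, and the neck genes and Poc1a had more in replicate 1.

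**Figure D2:**
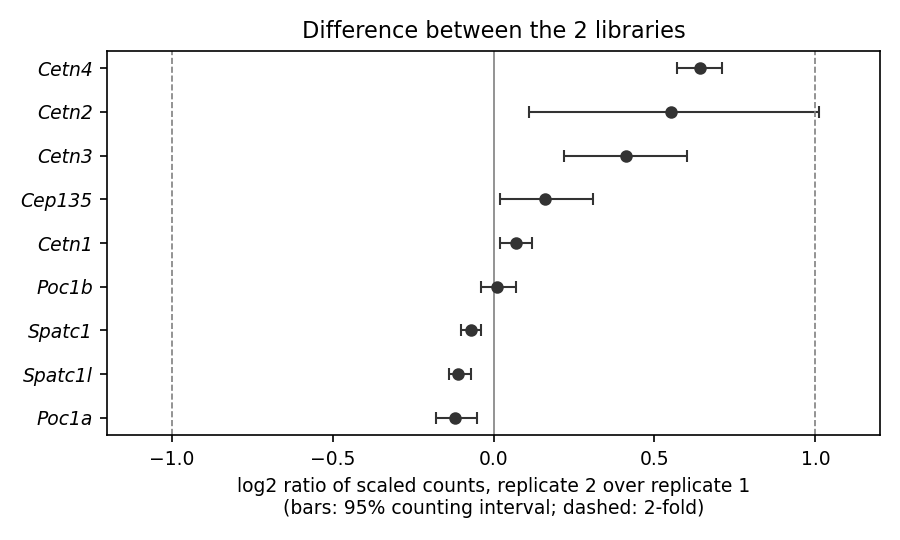
Log2 ratio of scaled counts, replicate 2 over replicate 1, for each gene, with 95% counting intervals and dashed lines at a 2-fold difference. Cetn4, at 0.64, is the farthest from 0, and no point reaches a dashed line.

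Cell markers also differed between the libraries, and their part in these ratios was not tested. The spermatocyte markers Sycp3, Ldhc and Piwil1 had log2 ratios of 0.41, 0.29 and 0.07, and the spermatid markers Prm1, Tnp1 and Acrv1 had -0.42, 0.13 and 0.55. The 3 smooth muscle markers of peritubular cells, Acta2, Myh11 and Cnn1, were all lower in replicate 2, and summed to 216.4 TPM in replicate 1 and 102.8 in replicate 2. The 9 markers of the epididymis summed to 464.6 TPM in replicate 1 and 3.45 in replicate 2. Crisp1 alone gave 454.28 and 0.2 TPM of those sums, and Adam7 gave 6.87 and 0. Of the 9, 3 were at 0 in both libraries and 1 was detected. The detected gene was Rnase10, which had 2.42 and 3.23 TPM and so was higher in replicate 2.

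Multiciliated epithelium, as in the efferent ducts, also holds centrins. Of its 7 markers 4 were detected, and the 7 summed to 164.9 TPM in replicate 1 and 151.2 in replicate 2. The highest were Foxj1, a regulator of motile cilia, with 86.71 and 65.38 TPM in replicates 1 and 2, and Deup1, a scaffold of centriole amplification, with 65.5 and 68.08. Foxj1 and Deup1 gave most of both sums, and which cells their RNA came from was not tested. Cdc20b had 6.66 and 13.32 TPM and Ccno 5.7 and 4.29. The regulators Mcidas and Gmnc had 0.1 and 0.12 TPM in replicate 1 and 0.02 and 0.08 in replicate 2, and Rsph4a had 0.1 and 0.07. By scaled counts, of the 6 with at least 10 counts in each library, 5 were higher in replicate 1 and Deup1 in replicate 2, at a log2 ratio of 0.03. The direction of Cdc20b depended on the measure, at -0.19 by scaled counts but higher in replicate 2 by TPM. The spermatogonial, Sertoli and Leydig markers, 3 of each, were all detected, with median log2 ratios of 0.28, 0.31 and 0.03.

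Transcript shares, the percent of a gene's TPM given to each of its transcripts, came from the authors' assignment of reads. Cetn1, Cetn3 and Spatc1 have 1 transcript in the tables, and the other 6 have several. For all 6 the same transcript led in both libraries, as it did for 88.8% of 9553 detected protein-coding genes with several transcripts. The leading transcript held under 60% in 3 of the 6 (Cetn4, Cep135 and Poc1b), against 39.2% of those genes.

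Cetn4 was led by the transcript that lacks exon 4. Cetn4-202 held 55.43% in replicate 1 and 58.01% in replicate 2, or 49.73 and 86.46 TPM, and the 5-exon Cetn4-203 held 40.63% and 39.56%, or 36.45 and 58.97 TPM. Both transcripts were higher in replicate 2, while their shares moved little. Transcripts that hold the exon summed to 44.57% and 41.99%. Cetn4-202 is annotated with a later start and an earlier end than Cetn4-203, at 762 against 1064 bases, so its share rests on reads at the ends of the gene as well as on the join printed above.

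A search of the translated sequences for the PROSITE signature of the EF hand, the calcium-binding loop of centrins, gave 2 matches in each full-length centrin. In Cetn4-203 they lie at residues 37 to 49 and 146 to 158, on either side of exon 4, and in Cetn4-202 both remain, at 37 to 49 and 100 to 112. At least 2 matches were found in 0.449% of 21592 protein-coding genes. The signature misses an EF hand whose loop departs from it, so these matches do not count all EF hands. They do not show whether exon 4 encodes one. A match is a description of letters and does not show that calcium is bound.

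**Figure D3:**
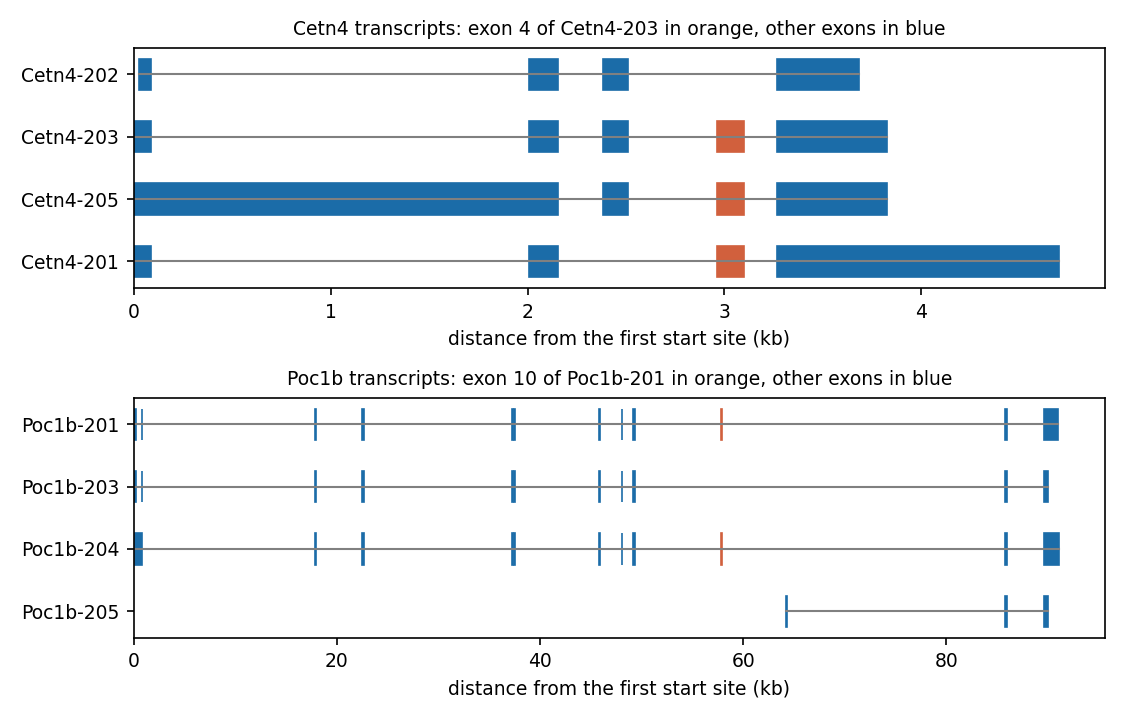
Exons of the main Cetn4 and Poc1b transcripts to scale, as distance in kilobases from the first start site. The orange exon is absent from Cetn4-202 and from Poc1b-203, which held 55.43% and 17.73% of their genes in replicate 1. It is also absent from Poc1b-205, which begins downstream of it and held 29.12% in replicate 1.

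Poc1b was split most evenly. Poc1b-201, which encodes 476 residues, held 30.79% and 32.71% in replicates 1 and 2. Poc1b-204, with 434 residues, held 17.91% and 20.41%, and Poc1b-203, which skips exon 10 and encodes 449 residues, held 17.73% and 27.25%. Poc1b-201 and Poc1b-204, which hold exon 10, thus summed to 48.7% and 53.12%. Poc1b-202, a nonsense-mediated decay transcript at 3.18% and 0.97% in replicates 1 and 2, was not checked for the exon. Poc1b-205, a processed transcript of 669 bases with no coding sequence that begins downstream of exon 10, held 29.12% in replicate 1 and 18.67% in replicate 2. Apart from a first exon of 50 bases, it lies within the last exons of Poc1b-201, so few reads can tell them apart. It was given 371.07 of 5038 counts in replicate 1 and 224.57 of 5356 in replicate 2. Its share is larger by TPM, which divides by length. Protein-coding transcripts in all made up 66.43% and 80.37% of Poc1b TPM.

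The direction of Poc1b between libraries depended on the measure. Its counts were 5038 in replicate 1 and 5356 in replicate 2, and the mean length of its transcripts, weighted by their levels, was 2049 and 2264.71 bases. The log2 ratio of replicate 2 over replicate 1 was 0.01 for scaled counts and -0.13 for TPM, which divides by that length.

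In Cep135, Cep135-202 and Cep135-201 encode the same 1140 residues and differ in their first and last exons. Cep135-202 held 39.33% and 53.06% and Cep135-201 held 25.84% and 9.75% in replicates 1 and 2. Cep135-203, annotated as a retained intron with no coding sequence, held 34.83% and 37.19%, so 65.17% and 62.81% of Cep135 TPM was protein-coding. Cep135-201 had 0.87 and 0.37 TPM in those libraries, and its difference between them was not tested.

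The other genes had 1 dominant transcript. Cetn2-203 held 80.58% and 100% in replicates 1 and 2, with Cetn2-201 at 19.42% and 0%, from few counts. Spatc1l-201, which encodes 342 residues, held 95.27% and 94.96%, and Spatc1l-202, with 195, held 4.73% and 5.04%. Poc1a-201, with 405 residues, held 91.55% and 91.78%, and the processed transcript Poc1a-203 held 4.22% and 5.75%.

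**Figure D4:**
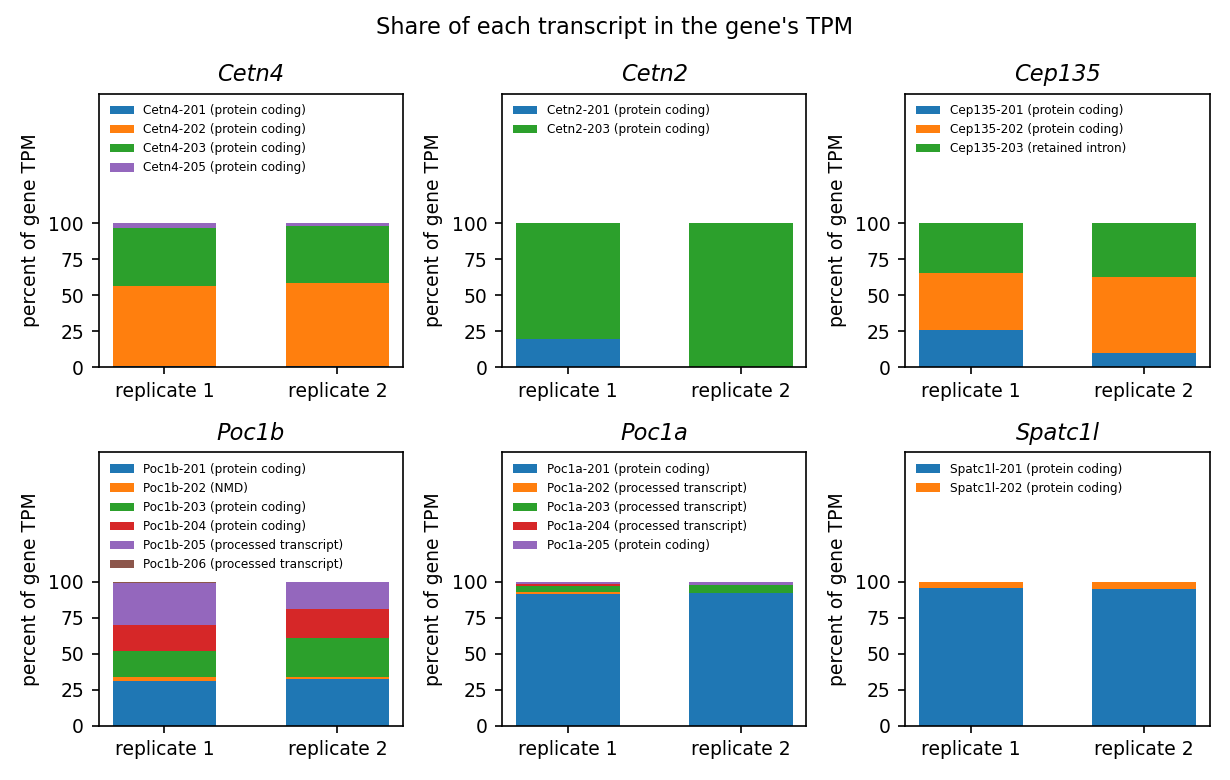
Percent of each gene's TPM in each of its transcripts, stacked, for the 6 genes with several transcripts, in replicates 1 and 2. Cetn4, Cep135 and Poc1b are split among several transcripts, whereas Poc1a and Spatc1l have 1 transcript above 90%.

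The centrins share much of their protein sequence. Identity was 81.4% between Cetn1 and Cetn2, 72.6% between Cetn2 and Cetn4 and 70.2% between Cetn1 and Cetn4, and 53.3% to 54.5% between Cetn3 and the others. Poc1a and Poc1b were 57.7% identical over 404 aligned residues, and Spatc1 and Spatc1l 40.6% over 340. Exons 2 to 8 of Poc1a-201 and Poc1b-201, 7 in all, have equal lengths in pairs, ranging over 69 to 180 bases.

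Stretches of 76 bases, the read length, were compared between the deposited transcripts of the 9 genes and the transcripts of all genes, each read in its own sense. None was shared by any pair of the 9, and 7 of the 9 had none in another gene. Cetn4 shared 150 of its 4176 different stretches, or 3.59%, with the pseudogene Gm7094. By transcript this was 150 of 687 stretches (21.8%) in Cetn4-202 and 128 of 989 (12.9%) in Cetn4-203. The exons of Cetn4-202 lie within those of Cetn4-203, so its extra shared stretches cross its join of exons 3 and 4. That join, which tells the forms apart, is thus partly shared with Gm7094. Gm7094 had 0 counts in both libraries, and counts that belong to one gene could have been given to the other. Cep135 shared 3 stretches, or 0.0413%, with Sppl3. The comparison leaves out genes that overlap on the opposite strand, which over all GENCODE M21 transcripts share exonic bases with 5 of the 9: 841 bases of Poc1b with Gm48768, 270 of Cetn3 with Gm17259, 191 of Spatc1 with Mirt2, 135 of Spatc1l with Gm15343, and 55 of Cetn4 with Gm43439 and 32 with Bbs12. It also leaves out Poc1b transcripts that are in GENCODE M21 alone, and with them 420 exonic bases shared with Galnt4 on the same strand.

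Promoters, windows of 300 bases around the start in RefSeq on GRCm38.p6, were at hand for 7 of the 9 genes and were searched on both strands. Cetn1 and Spatc1 had none, so nothing below covers them. TGACGTCA, the full site of the CREB family that includes the spermatid regulator CREM, was in 0 of the 7 and in 1.79% of 32851 promoters. The shorter TGACG, which is contained in the full site, was in 3 of the 7 (Cetn2, Cetn4 and Poc1b) and in 20.8% of all promoters. The MYB site AACTGCC was in 0 of the 7 and 4.12% of all. A pattern of fixed spacing for the X-box of RFX factors was in 0 of the 7 and 0.731% of all. X-boxes of other spacing were not searched for.

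Genes beside the 9 had levels of their own. Cetn2 and Nsdhl, a sterol synthesis enzyme, start in opposite directions 146 bases apart, and Nsdhl had 5.05 and 5.63 TPM in replicates 1 and 2. Cetn4 overlaps Bbs12, a chaperonin-like protein of ciliopathy, on the other strand by 32 exonic bases, and Bbs12 had 1.33 and 2.04 TPM. Of the deposited Cetn4 transcripts, only Cetn4-204 reaches Bbs12 or Gm43439, and it had 0 TPM in both libraries. Spatc1 lies between Grina, with 804.5 and 844.19 TPM, and Smpd5, with 228.69 and 213.71. Cep135 lies upstream of C530008M17Rik, with 176.65 and 161.61 TPM, and Poc1a next to the heme synthesis gene Alas1, with 77.58 and 74.53. The other nearest protein-coding neighbours, Ccny and Colec12 of Cetn1, Gabrq of Cetn2, Mblac2 and Mef2c of Cetn3, Il21 and Fgf2 of Cetn4, Lss and Ftcd of Spatc1l, Exoc1 of Cep135, Dusp7 of Poc1a, and Atp2b1 and Dusp6 of Poc1b, had means between 0.065 and 16.06 TPM. The antisense gene Gm15343 shares 135 exonic bases with Spatc1l and had 16.62 and 15.45 TPM. The libraries were stranded, per the labels, but no source used here gives the strand setting of the counting.

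Most genes listed for the wider machinery of the centriole were detected. Of 65 measured genes in 7 lists, 62 were detected, beside 62.1% of protein-coding genes. Their median was 18.5 TPM, beside 3.58 TPM for all protein-coding genes and 12.9 TPM for detected ones. The lists were chosen with earlier results of these data known. Between libraries, 0 of 64 with enough counts passed 2-fold, beside 3.49% of all tested genes. The list of the sperm neck and head-tail coupling had the highest median, 104.7 TPM, with 10 of 10 detected. It was led by the outer dense fibre gene Odf1 at 3348 ± 29.4 TPM (SD, n = 2), Spata6, needed to form the connecting piece, at 839.4 ± 15.7, and the nuclear envelope protein gene Spag4 at 748.4 ± 4.9, and Tsga10 was lowest at 29.58 ± 2.7.

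Centriole duplication and assembly, which includes partners of Cep135, had 17 of 17 detected at a median of 10.41 TPM. Cep63, which recruits Cep152, led with 164.2 ± 0.346 TPM, followed by Cep120 at 41.17 ± 3.58 and Ccp110, a cap protein of the distal end that binds centrin, at 38.3 ± 6.12. Ofd1 was lowest at 1.06 ± 0.0707. Scaled counts of 13 of the 17 were higher in replicate 2, and the median log2 ratio was 0.20. The median was 0.07 for the 9 genes described here and -0.00 for all tested protein-coding genes. Regardless of sign, the median over those tested genes was 0.19, so 0.20 is a common size of difference.

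Inner scaffold and centrin-binding genes had 6 of 6 detected at a median of 21.73 TPM. Fam161a led at 66.15 ± 1.1 TPM, then Wdr90 at 39.33 ± 3.39 and Mdm1 at 24.57 ± 0.184. Ccdc15 was lowest at 3.06 ± 0.467. Poc5, a direct centrin partner chosen after its values were seen, had 14.63 ± 0.0636 TPM.

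Distal and subdistal appendage genes had 8 of 11 detected at a median of 45.72 TPM. Odf2, which also builds the outer dense fibres, stood at 1788 ± 233 TPM, Cep128 at 175.5 ± 17.3 and Cep89 at 67.8 ± 7.0. Ankrd26 at 0.94 ± 0.17 TPM, Nin at 0.19 in both libraries and Ccdc68 at 0.045 ± 0.0354 were under 1.

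The linker that tethers centriole pairs had 7 of 7 measured genes detected at a median of 10.1 TPM, and Ccdc102b was not matched. The linker kinase Nek2 led at 53.16 ± 1.89 TPM, followed by Cep44 at 26.85 ± 2.33 and Crocc, or rootletin, at 12.43 ± 2.33, and Cep250 was lowest at 5.305 ± 0.29. Pericentriolar material genes had 8 of 8 detected at a median of 14.07 TPM. Cdk5rap2 had 65.38 ± 3.04 TPM, Tubgcp2 47.39 ± 3.23 and Tubg1, the main gamma-tubulin, 21.77 ± 2.64, while Tubg2 had 1.535 ± 0.177.

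Partners of centrin outside the centriole had 6 of 6 detected at a median of 17.33 TPM. The repair factor Rad23b had 356.9 ± 16.4 TPM, and Pcid2 and Sem1 of the mRNA export complex had 50.86 ± 5.71 and 27.86 ± 0.276. Eny2 was lowest at 2.675 ± 0.969. Xpc, the repair partner of Cetn2 and chosen after its values were seen, had 2.875 ± 0.106 TPM, near the 2.06 TPM of Cetn2.

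**Figure D5:**
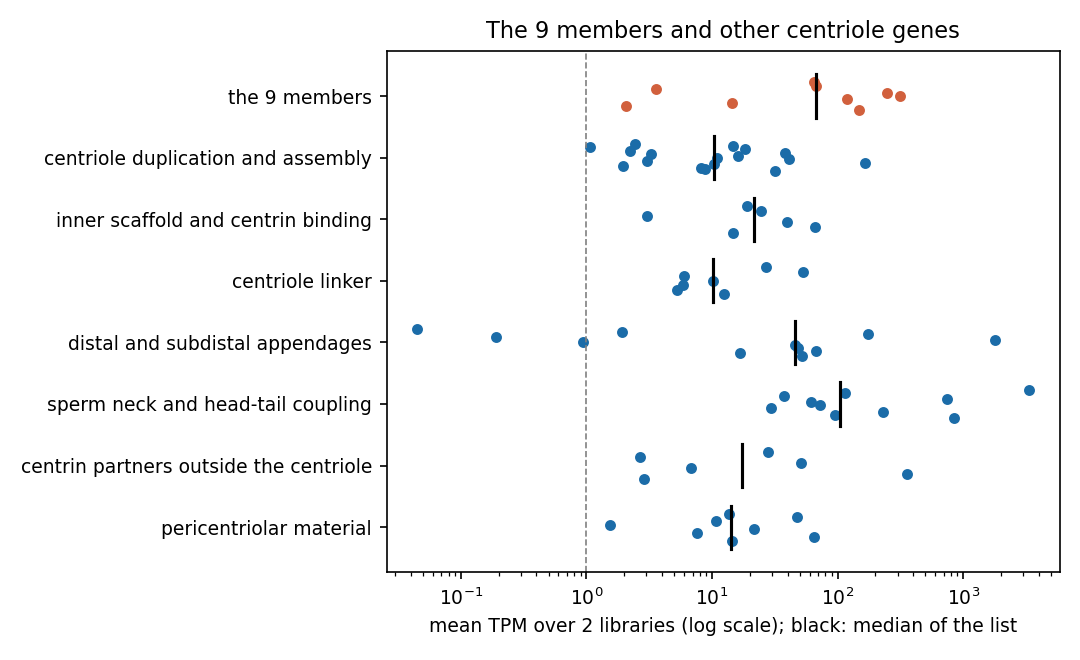
Mean TPM over both libraries, on a log axis, of the 9 genes (orange) and of each measured gene in the 7 lists (blue), with black bars at the medians. The median of the 9 is 66.9 TPM, and the medians of the 7 lists run between 10.1 and 104.7 TPM.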

How the data were processed

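Gene and transcript tables of both testis libraries were used, on mm10 and annotation M4 as named in the deposited readme. The authors' expected counts are estimated, unnormalised read counts. The authors also deposited TPM, FPKM and each transcript's percent of its gene, with posterior means. The aligner and quantifier: not given in the sources used here. Symbols, types and exons came from GENCODE M21 by unversioned identifier, which matched 42462 genes and all 28 transcripts of the 9 genes, 26 of them at the same length. Counts over Ensembl genes summed to 49023238 in replicate 1 and 51465728 in replicate 2.

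Detection required a TPM of 1 or more in each library. Levels are means with the SD, and paralogs were compared as log2(TPM + 1). Replicate ratios used rounded expected counts where each library had 10 or more, scaled by TMM in edgeR 4.0.16 under R 4.3.3, with exact 95% binomial intervals. The intervals were tried on simulated counts that held counting error only. That trial cannot show how they cover further variation between libraries. DESeq2 1.42.0 size factors were an alternative. The common biological coefficient of variation between libraries was 0.184 over 19534 genes. No test was made: 1 group of 2 libraries allows none. Promoters are from RefSeq. Protein identity used translated GENCODE M21 coding sequences in place of the planned RefSeq proteins, aligned end to end with BLOSUM62 in Biopython 1.88 and divided by aligned residues. Splice junctions and contigs, deposited on mm9, were not used here.

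The members and lists were chosen with earlier results of these data known. Named are the 9 genes, their transcripts at 5% or more, the 3 highest and the lowest gene of each list with up to 3 under TPM 1, and the nearest protein-coding gene on each side. Others were chosen after their values were seen.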

Additional observations from a re-analysis of the deposited data

How the results depend on the processing

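The 53 results were recomputed under 144 alternatives in all. A value was taken as unmoved within the spread between replicates. For a replicate log2 ratio the limit was 0.5 times the width of its counting interval. Counts could change by up to 1.5 times, except the count past 2-fold, which had to stay equal. By these limits 126 alternatives were unmoved. Leaving out 1 of 2 libraries always moves a mean by less than their SD. The means among the 31 values without each replicate, all within the 126, thus say little of stability. The rest of the 31 are list medians and counts. All 9 genes stayed detected at a TPM of 0.5, by posterior mean TPM and without either replicate, and 7 did at a TPM of 5. Detection at a TPM of 1 in both libraries already fixes detection at 0.5 and in either library alone. All 9 kept their place in the order of levels by FPKM, by posterior mean TPM and in either replicate alone. None passed 2-fold between replicates with DESeq2 size factors, with TPM or without the filter on low counts. With a pseudocount of 0.1 the log2 ratios over Cetn2 became 6.12 for Cetn1, 5.76 for Cetn4 and 2.77 for Cetn3, as a smaller pseudocount lowers the floor under Cetn2. By posterior mean TPM that of Cetn3 over Cetn2 was 2.25. Without either replicate in turn the ratio of Cetn1 over Cetn2 ran between 5.49 and 5.74, and that of Cetn4 over Cetn2 between 5.07 and 5.46. By TPM the replicate log2 ratio of Poc1b reversed to -0.13 and that of Cetn4 was 0.73. By posterior means the share of Cetn2-203 was 73.78% against 90.29%. Among detected genes only, every gene's percentile fell. No paired analysis was possible because there is 1 group. Cetn2, with 71 and 110 counts, had the widest counting interval of the 9. Intervals cover counting error only, and 2 libraries of uncertain independence give no test.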
